A study of Mus musculus with 22 samples.

Results

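Transcripts of insulin-like growth factor 1 (Igf1), its receptor (Igf1r), 6 IGF-binding proteins (Igfbp2, Igfbp3, Igfbp4, Igfbp5, Igfbp6 and Igfbp7) and the binding-protein protease Pappa were followed in mouse skin fibroblasts during the first days of skin expansion. These 9 genes were picked by name with earlier results of these data in view, the falls of Igfbp2 on days 1 and 4 among them, and each symbol matched 1 of the 55414 rows of the gene count table; all 9 passed the filter on low counts that left 17554 genes for testing. Every mouse had been operated on: a path was opened under the back skin from a cut near the tail towards the neck. In the EXP mice a swelling hydrogel expander was left under the skin near the neck, and in the CTRL mice no expander was placed, so the control is a surgery control and no unoperated skin was analysed here. Skin was taken on day 1 (4 CTRL and 5 EXP libraries), day 2 (3 and 3) or day 4 (4 and 3). Fibroblasts were sorted as live cells carrying CD34 and PDGFRα after cells with CD31, CD45, CD117 or EpCAM had been removed. Strain, sex and age are not given in the sources used here, nor whether each library is 1 mouse; p-values therefore measure the spread between these 22 libraries only.

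IGF1 is a secreted growth factor that signals for survival, growth and matrix production through the tyrosine kinase IGF1R, then IRS adaptors, PI3 kinase and AKT. In skin it is made mainly by dermal fibroblasts and reaches keratinocytes and the fibroblasts themselves. The binding proteins hold IGFs in the extracellular space and either block or prolong their access to the receptor. PAPP-A, the product of Pappa, cuts IGFBP4 and some other binding proteins and so frees IGF close to the cell, while stanniocalcins inhibit PAPP-A.

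Each library held 21461294 to 30210204 counts, at which 3 counts correspond to 0.0805 to 0.157 CPM (a gene's count relative to the scaled total of its library). Transcripts of the gated proteins were present in every group: Pdgfra averaged 239 to 779 CPM and Cd34 421 to 1970 CPM by group. The means of the pan-leukocyte gene Ptprc were at most 0.117 CPM. However, the 7 hematopoietic and macrophage markers, Ptprc among them, summed to 63 to 182 CPM by library. Of 5 tested, 2 rose and 1 fell on day 1, 2 rose on day 2 and 1 rose on day 4. Summed keratinocyte markers were 3.35 to 43.9 CPM, melanocyte and mast markers 13.2 to 46.4 CPM and endothelial markers 0 to 8.85 CPM. Cd34 fell on days 1 and 2 (-1.74 and -2.07 on the log2 scale, edgeR adjusted p = 8.1e-04 and 0.00379), while Pdgfra rose on all 3 days (0.84, 1.71 and 0.79, edgeR adjusted p = 0.0154, 0.00134 and 0.0456). The 3 collagen genes Col1a1, Col1a2 and Col3a1 took 19.8% to 30.7% of all counts in CTRL and 6.95% to 24.2% in EXP libraries. The libraries were also cut into a high and a low side by the mean log2 CPM of 192 genes that rise and fall with Rnf10. That score ran from 2.473 to 5.476, and the cut was set at its widest gap (4.133 to 4.829) in these same libraries. The labels do not record this split. On the high side were, from day 1, CTRL replicates 1 to 3 with EXP replicates 1 and 2, and, from day 4, CTRL replicates 3 and 4. The summed adipocyte markers (Adipoq, Plin1, Lep, Cidec, Cfd and Fabp4) were 0.835 to 9.65 CPM in EXP against 1.82 to 24.9 CPM in CTRL on day 1, 8.02 to 88.8 against 0.249 to 3.13 on day 2, and 43.6 to 502 against 0.545 to 2.22 on day 4. As these are bulk libraries, fewer cells of a type and less RNA per cell cannot be told apart.

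Promoter sequence is shown for the genes around which the results turn. These are Igfbp5, lower in EXP on days 1, 2 and 4, and its neighbour Igfbp2, lower on days 1 and 4 only. With them are Igfbp4, higher in EXP on days 2 and 4, and the ligand Igf1. The windows hold the 250 bases before the RefSeq start site (GRCm38.p6), read 5′ to 3′ along the gene, with capitals marking every match, on either strand, to the motifs named after them.
Igfbp5, chr1:72874866-72875115, minus strand: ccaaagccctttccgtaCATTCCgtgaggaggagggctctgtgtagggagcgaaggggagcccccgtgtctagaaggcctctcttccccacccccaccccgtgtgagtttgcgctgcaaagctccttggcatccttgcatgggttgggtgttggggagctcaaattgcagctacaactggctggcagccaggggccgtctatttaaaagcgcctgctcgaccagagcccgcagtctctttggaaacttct
Igfbp2, chr1:72824230-72824479, plus strand: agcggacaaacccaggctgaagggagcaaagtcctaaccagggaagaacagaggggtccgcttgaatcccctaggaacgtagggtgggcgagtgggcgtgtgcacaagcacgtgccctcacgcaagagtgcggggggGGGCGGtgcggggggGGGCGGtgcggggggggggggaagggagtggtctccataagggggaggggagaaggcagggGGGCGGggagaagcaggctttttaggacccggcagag
Igfbp4, chr11:99040994-99041243, plus strand: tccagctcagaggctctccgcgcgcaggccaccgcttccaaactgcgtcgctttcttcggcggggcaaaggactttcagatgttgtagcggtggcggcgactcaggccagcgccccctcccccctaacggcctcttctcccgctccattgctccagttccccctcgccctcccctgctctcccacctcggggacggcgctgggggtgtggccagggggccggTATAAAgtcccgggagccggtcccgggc
Igf1, chr10:87860861-87861110, plus strand: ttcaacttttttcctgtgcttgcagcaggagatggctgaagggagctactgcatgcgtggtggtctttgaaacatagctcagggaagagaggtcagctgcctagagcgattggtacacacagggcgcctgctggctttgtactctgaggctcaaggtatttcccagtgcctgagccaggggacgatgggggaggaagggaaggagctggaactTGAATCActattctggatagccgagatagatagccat
The TATA box was searched as TATAAA and the GC box as GGGCGG. Letters known to be bound by FoxO factors were searched as GTAAACA, by STAT5 as TTCNNNGAA, by C/EBP as TTGCNNAA, by AP-1 as TGANTCA and by TEAD as GGAATG; no 2 matches of different motifs overlapped. Igfbp4 held TATAAA starting at base -28, a letter string found in 12.4% of 32851 RefSeq mouse promoter windows of this length. Igfbp2 held GGGCGG 3 times, a string in 32.7% of windows, and of its 2 start sites in the RefSeq table the one nearest the GENCODE M21 gene start is shown. Igfbp5 held 1 match to GGAATG, on the opposite strand (12.6% of windows) and Igf1 1 match to TGANTCA (6.75%). None of the 8 genes with an entry matched GTAAACA (3.17% of windows), TTCNNNGAA (7.02%) or TTGCNNAA (9.56%), which says only that these letters were not in these windows. The windows of Igfbp4 and Igfbp2 had 69.2% and 67.2% G+C, with 22 and 14 CpG sites, against 58.8% and 10 for Igfbp5 and 52.8% and 5 for Igf1.

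The comparison of EXP with CTRL on each day asks how fibroblasts of expanding skin differ from those of operated, unexpanded skin. Igfbp5 fell about 6-fold on all 3 days, Igfbp6 fell on days 1 and 2, and Igfbp4 rose about 5-fold on days 2 and 4. Igf1 fell 2.61-fold on day 1 and had the higher mean in EXP on days 2 and 4 without passing the test. Igfbp2 was at most 1.43 CPM in any EXP library, against 2.72 to 47.1 CPM in CTRL on days 1 and 4 and at most 0.299 CPM in CTRL on day 2. Igfbp3, Igfbp7 and Pappa passed this test on no day. Differences below are log2 fold changes of EXP over CTRL with their standard error (SE) and an adjusted p from edgeR's quasi-likelihood test, corrected by Benjamini-Hochberg over all 17554 genes. The SE was worked back from that test, as the absolute log2 fold change divided by the square root of its F value. It is therefore approximate, above all for transcripts near the floor.

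**Figure D1:**
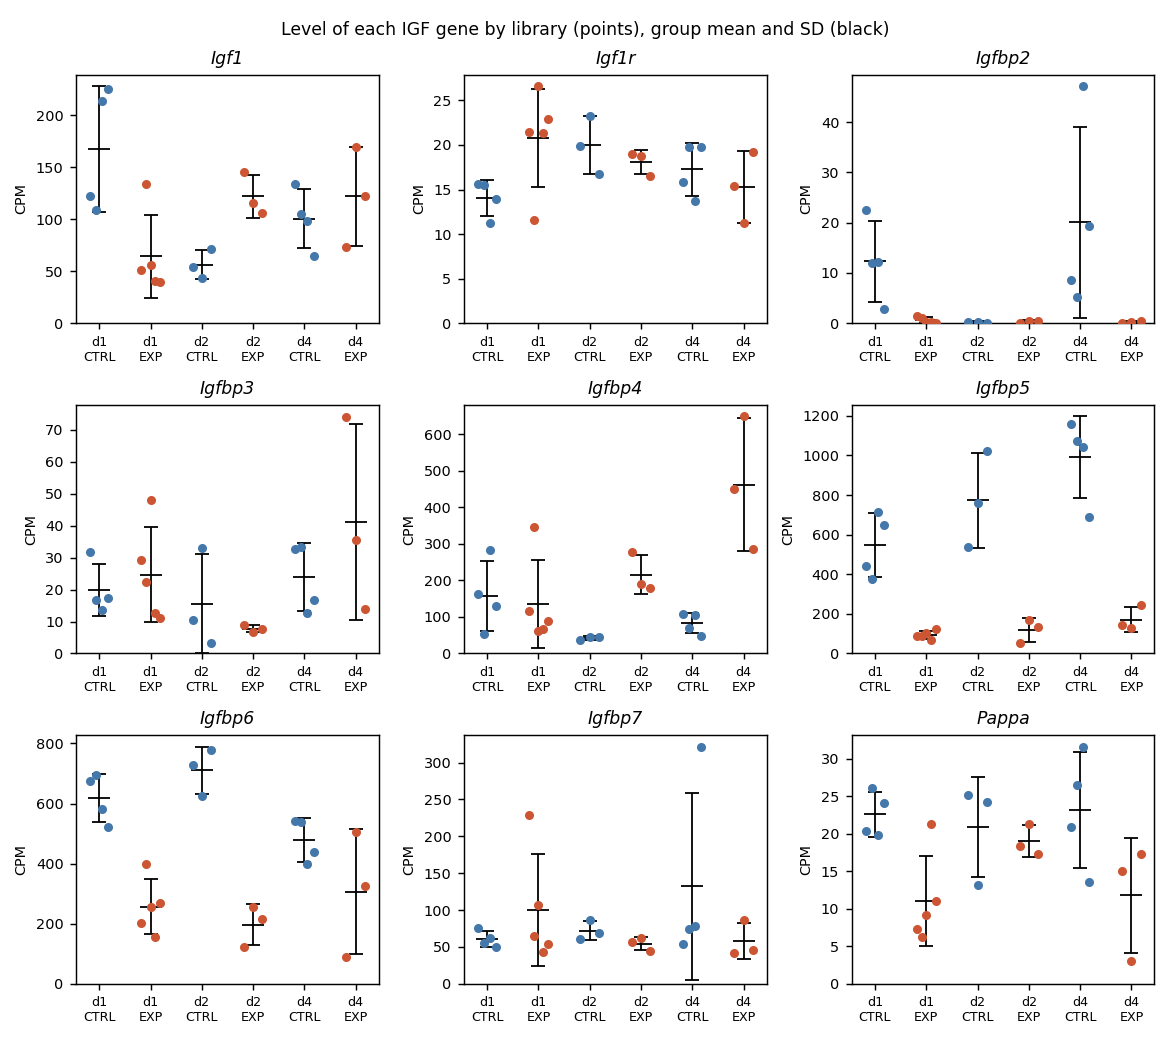
Level of each of the 9 genes in CPM (y axis, linear, own scale per panel) in every library (points; blue CTRL, red EXP) by day, with the group mean and SD in black. Igfbp5 reaches at most 246 CPM in EXP libraries and is at least 379 CPM in CTRL libraries, while Igfbp4 separates the arms on days 2 and 4 only.

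The ligand Igf1 was measured on day 1 at 122, 109, 214 and 225 CPM in CTRL replicates 1 to 4 and at 51.2, 134, 56.0, 40.2 and 39.6 CPM in EXP replicates 1 to 5. All EXP libraries but replicate 2 lay below every CTRL library. CTRL averaged 167 ± 60.3 CPM (SD, n = 4), EXP averaged 64.2 ± 39.7 CPM (SD, n = 5), and the difference was -1.38 (SE 0.34, edgeR adjusted p = 0.00472). Restricted to the high side of the library split, where EXP keeps only replicates 1 and 2, it was -0.71 with an adjusted p of 0.297, the highest among the 12 alternatives, whose lowest was 3.68e-04. On day 2 the order was the opposite, with 54.1, 43.8 and 71.3 CPM in CTRL and 145, 115 and 106 CPM in EXP. The groups did not overlap, but the difference of 1.12 (SE 0.42) had an edgeR adjusted p of 0.0824. It passed in 5 of 10 alternatives (adjusted p from 0.00536 to 0.193 over all 10), namely library totals alone (1.61), totals without the top 10 genes, voom, DESeq2 and that day's libraries alone, and in none of the 6 fits leaving out a library (0.105 to 0.251). On day 4 CTRL held 134, 105, 98.0 and 65.0 CPM and EXP 73.5, 169 and 123 CPM, overlapping ranges that differed by 0.28 (SE 0.39, edgeR adjusted p = 0.642).

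Tested directly, the EXP effect on Igf1 differed between the days (edgeR adjusted p = 0.0143), being 2.50 higher on day 2 and 1.66 higher on day 4 than on day 1. Of all genes tested, 8.82% were called for such a difference. Within CTRL the Igf1 mean went from 167 CPM on day 1 to 56.4 ± 13.9 CPM on day 2 and 101 ± 28.4 CPM on day 4, and this change over days had an edgeR adjusted p of 0.143.

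The receptor Igf1r passed the test on day 1 only. It was then 15.7, 15.5, 11.2 and 13.9 CPM in CTRL and 21.4, 11.6, 26.6, 21.3 and 22.9 CPM in EXP, and replicate 2, the EXP library with most Igf1, was the only EXP library inside the CTRL range. The rise was 0.56 (SE 0.21, edgeR adjusted p = 0.0459), and it missed the threshold whichever day 1 library was left out (adjusted p 0.0548 to 0.142), except EXP replicate 2 (0.00603). It was also lost in 8 of 12 alternatives (adjusted p 0.0158 to 0.715 over all 12). Among these were the split as a covariate (0.46, adjusted p 0.113) and the high side alone (0.19, adjusted p 0.715). On day 2 the groups averaged 20.0 ± 3.27 CPM in CTRL and 18.1 ± 1.36 CPM in EXP (n = 3 each), and on day 4 17.3 ± 3.00 (n = 4) and 15.3 ± 4.00 CPM (n = 3), with overlap on both days (edgeR adjusted p = 0.76 and 0.626).

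Igfbp5, whose product binds IGFs as well as extracellular matrix, showed the same fall on each day. On day 1 CTRL libraries held 440.0, 379, 714 and 650.3 CPM, and EXP libraries 87.8, 88.7, 105, 66.9 and 123 CPM. On day 2 the values were 540.2, 759 and 1021 CPM in CTRL against 52.4, 170 and 135 CPM in EXP, and on day 4 1159, 1074, 1045 and 691 CPM against 142, 127 and 246 CPM. On no day did the arms overlap, and the highest EXP library of any day was below the lowest CTRL library of any day. The falls were -2.53 (SE 0.30, edgeR adjusted p = 1.24e-05), -2.70 (SE 0.38, edgeR adjusted p = 2.02e-04) and -2.53 (SE 0.37, edgeR adjusted p = 2.91e-04), that is 5.79-fold, 6.5-fold and 5.78-fold. The falls differed between days by at most 0.17 on the log2 scale, and the test of that difference gave an edgeR adjusted p of 0.962. The only fit that ended a call was the one confined to low-side libraries on day 4, with 2 CTRL against 3 EXP (-2.70, adjusted p = 0.109, the highest of 12 alternatives from 1.05e-10), a fit in which 1 gene of the whole table was called. The share of the 3 collagen genes was lower in EXP beside this fall, as given above, and its part was not tested.

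Igfbp2 lies next to Igfbp5 on chromosome 1, with the 2 genes pointing at each other and their ends 5457 bases apart in the GENCODE M21 annotation. Its product carries an integrin-binding motif besides its IGF site. Because its falls on days 1 and 4 were known when the genes were chosen, they are described here without a test. On day 1 CTRL libraries held 22.5, 11.9, 12.2 and 2.72 CPM, and EXP libraries 1.43, 1.01, 0.182, 0.223 and 0 CPM, where 0 counts allow up to 0.109 CPM. On day 2 both arms were near the floor, at 0.299, 0.261 and 0.0898 CPM in CTRL and 0.0330, 0.472 and 0.341 CPM in EXP (1 to 12 counts). On day 4 CTRL held 8.56, 5.27, 47.1 and 19.3 CPM and EXP 0 (up to 0.0805 allowed), 0.174 and 0.428 CPM. The arms were thus apart on days 1 and 4 and not detectably different at this depth on day 2, with fitted differences of -4.44 (SE 0.89), 0.36 (SE 1.43) and -6.69 (SE 1.27).

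The level of Igfbp2 moved with the library split as well as with the arm. On day 1 the 3 high-side CTRL libraries held 11.9 to 22.5 CPM and the low-side one 2.72 CPM, and on day 4 the 2 high-side CTRL libraries held 47.1 and 19.3 CPM against 8.56 and 5.27 CPM. No day 2 library was on the high side, and low-side CTRL libraries of days 1 and 4 still held at least 2.72 CPM against at most 0.299 CPM on day 2. Within the sides the arms stayed apart: high-side EXP libraries of day 1 held 1.43 and 1.01 CPM, and low-side EXP libraries of day 4 at most 0.428 CPM. The part of the split in the size of the Igfbp2 difference was not tested.

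**Figure D2:**
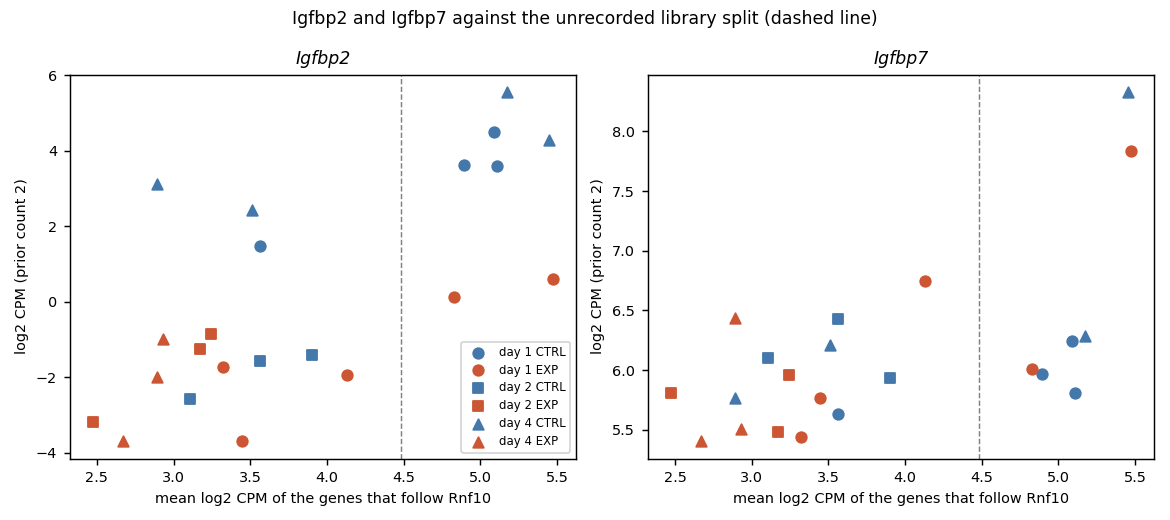
log2 CPM of Igfbp2 (left) and Igfbp7 (right) in each of the 22 libraries (points; colour arm, shape day) against the mean log2 CPM of the genes that follow Rnf10, with the dashed line dividing the high from the low side. Igfbp2 is lower in EXP than in CTRL of the same day on both sides of the line for day 1, and the 2 highest Igfbp7 libraries are those at the far right.

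Igfbp6, a binding protein that prefers IGF2 over IGF1, fell on days 1 and 2. On day 1 CTRL held 674, 694, 581 and 523 CPM and EXP 201, 400.0, 257, 156 and 270.2 CPM. On day 2 CTRL held 729.5, 625 and 778 CPM and EXP 121, 255 and 214 CPM. The arms did not overlap on either day, and the falls were -1.27 (SE 0.34, edgeR adjusted p = 0.00771) and -1.86 (SE 0.42, edgeR adjusted p = 0.00685); the second was -1.60 with an adjusted p of 0.0533 without EXP replicate 1, the highest of the 6 fits leaving out a day 2 library, whose lowest was 0.0111. On day 4 CTRL held 543, 540.0, 398 and 439 CPM and EXP 88.4, 504 and 326 CPM. Here EXP replicate 1 was far below and replicate 2 inside the CTRL range, and the difference was -0.65 (SE 0.39, edgeR adjusted p = 0.238). The test of a difference between the 3 days gave an edgeR adjusted p of 0.325, and 0.0416 without day 4 EXP replicate 1. Beside these falls, 4, 5 and 3 of the 8 sorted-fibroblast markers fell on days 1, 2 and 4 and 1 rose. Of 6 markers of fascia and adventitial fibroblasts, 4 fell on day 1 and 2 on day 2, and 2 rose on day 4. Their summed level was 1010 to 2280 CPM in EXP against 1700 to 2430 CPM in CTRL on day 1, 850 to 1530 against 1480 to 2390 on day 2, and 1210 to 3490 against 1520 to 2820 on day 4. EXP replicate 2 had both the highest sum and the most Igfbp6 of its group on days 1 and 4. The part of either marker list in the Igfbp6 difference was not tested.

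Igfbp4, the principal PAPP-A substrate and an inhibitor of IGF action, went the other way. On day 1 the arms overlapped, with 164, 54.6, 283 and 130.4 CPM in CTRL and 116, 347, 61.6, 66.0 and 89.0 CPM in EXP (-0.22, SE 0.47, edgeR adjusted p = 0.766). On day 2 CTRL held 35.9, 44.4 and 45.6 CPM and EXP 277, 190.3 and 179.8 CPM, and on day 4 CTRL held 107, 70.9, 106 and 49.0 CPM and EXP 450.0, 649 and 286 CPM. No EXP library of days 2 and 4 reached down to the CTRL range. The rises were 2.36 (SE 0.61, 5.14-fold, edgeR adjusted p = 0.0147) and 2.47 (SE 0.55, 5.53-fold, edgeR adjusted p = 0.0048).

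The EXP effect on Igfbp4 differed between days (2.58 higher on day 2 and 2.69 higher on day 4 than on day 1, edgeR adjusted p = 0.0283). That call was lost without day 1 CTRL replicate 1 or 3, day 1 EXP replicate 1, 3 or 5, or day 4 EXP replicate 2 (adjusted p 0.0502 to 0.0799, with 0.00146 the lowest of the 22 such fits). It was also lost with no filter on low counts (0.0716) and without both libraries richest in Igfbp7 (0.0811), among 9 alternatives from 0.00547 to 0.201. In CTRL its mean went from 158 ± 95.2 CPM on day 1 to 42.0 ± 5.31 CPM on day 2 and 83.4 ± 28.5 CPM on day 4, and in EXP from 136 ± 120 to 216 ± 53.5 and 461 ± 182 CPM. The day 2 rise missed the threshold without CTRL replicate 1, CTRL replicate 2 or EXP replicate 1 (adjusted p = 0.0631, 0.0569 and 0.0659; lowest of the 6 such fits 0.0245), and the day 4 rise in the low-side libraries alone (2.37, adjusted p = 0.128, the highest of 12 alternatives from 4.51e-05). The adipocyte markers rose in the same 2 comparisons, 2 of 5 tested on day 2 and 5 of 5 on day 4, with Lep at 0 in every CTRL library. The summed pericyte and smooth muscle markers were likewise 19.5 to 38.6 CPM in EXP against 8.66 to 16.7 CPM in CTRL on day 2 and 32.4 to 43.2 against 18.4 to 27.4 CPM on day 4, with 1 of 6 rising on each day. The part of either list in the Igfbp4 difference was not tested. The day 2 EXP library with the most Igfbp4 (277 CPM) also had the highest adipocyte sum of its group (88.8 CPM), whereas on day 4 the library with the highest sum (502 CPM) had the least Igfbp4 (286 CPM).

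**Figure D3:**
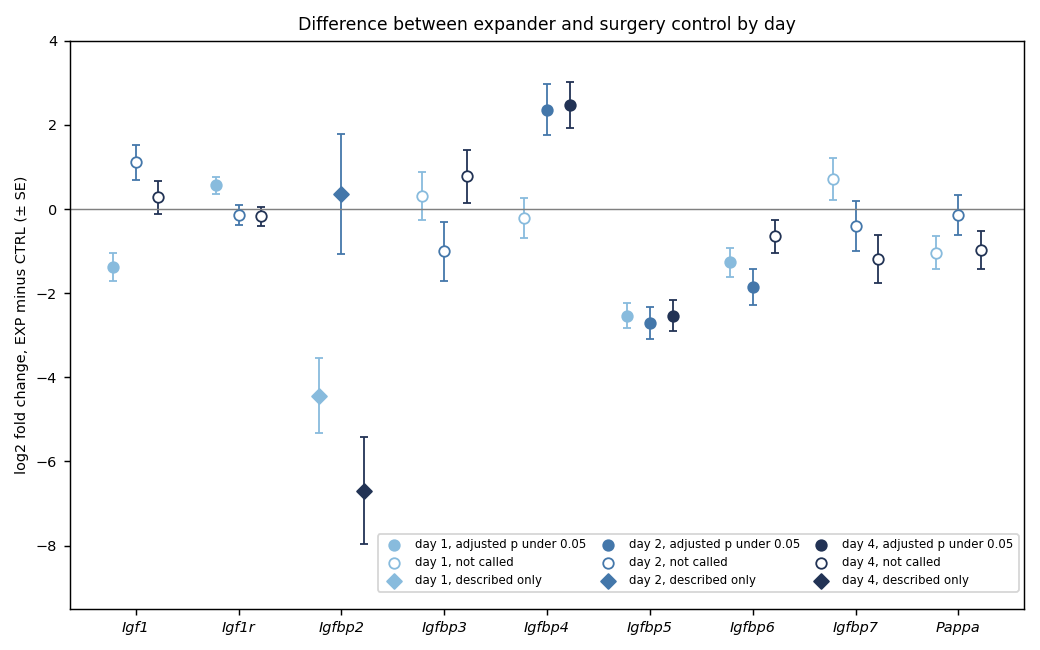
log2 fold change of EXP over CTRL with its SE (y axis) for the 9 genes on days 1, 2 and 4; filled circles passed an adjusted p of 0.05, open circles did not, and diamonds mark Igfbp2, which is described without a test. Igfbp5 lies between -2.70 and -2.53 on all days. Igf1, Igf1r, Igfbp2, Igfbp3, Igfbp4 and Igfbp7 change sides of 0 between day 1 and day 2, and none of these passed on both days.

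Igfbp3, the main IGF carrier of serum, varied widely between libraries of a group and passed the test on no day. Its range was 13.7 to 31.8 CPM in CTRL and 11.2 to 48.1 CPM in EXP on day 1, 3.23 to 32.9 and 6.65 to 8.87 CPM on day 2, and 12.8 to 33.5 and 13.9 to 74.2 CPM on day 4. The differences were 0.31 (SE 0.56), -1.0 (SE 0.70) and 0.78 (SE 0.63), with edgeR adjusted p of 0.718, 0.369 and 0.388.

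Igfbp7, a low-affinity member of the family, was even across most libraries, at 42.3 to 107 CPM in 20 of 22. The exceptions were day 1 EXP replicate 1 with 228 CPM and day 4 CTRL replicate 4 with 322 CPM, which had the highest scores of their groups and of all libraries in the split. Differences were 0.71 (SE 0.49, edgeR adjusted p = 0.299), -0.41 (SE 0.59, edgeR adjusted p = 0.704) and -1.19 (SE 0.57, edgeR adjusted p = 0.141). Without day 1 EXP replicate 1 the first was 0.18 (adjusted p 0.794, the highest of the 9 fits leaving out a day 1 library, lowest 0.183), and without day 4 CTRL replicate 4 the last was -0.25 (adjusted p 0.745, the highest of 7, lowest 0.0786). The summed pericyte and smooth muscle markers in these libraries were 11.4 and 21.1 CPM, where the other libraries of their groups held 9.08 to 30.7 and 18.4 to 27.4 CPM. Igfbp7 shares exon sequence with Polr2b on the opposite strand, and whether counting used strand is not given in the sources used here. Polr2b was 63.4 CPM in the first library and 27.4 CPM in the second, the highest and lowest of the 22. The part of the pericyte markers or of Polr2b in these Igfbp7 levels was not tested.

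Pappa transcripts were fewer in most EXP libraries of day 1, and whether that difference passed the test depended on the setting. On day 1 CTRL held 20.4, 26.1, 19.9 and 24.1 CPM and EXP 7.33, 6.22, 9.22, 21.3 and 11.1 CPM, so that EXP replicate 4 alone overlapped CTRL. The difference was -1.03 (SE 0.39, edgeR adjusted p = 0.0519), and without that library it was -1.40 with an adjusted p of 0.00865, the lowest of the 9 fits leaving out a day 1 library, of which the highest was 0.118. It also passed in 7 of the 12 other alternatives, DESeq2 and voom among them (adjusted p 0.00689 to 0.154 over the 12). On day 2 the groups averaged 20.9 ± 6.67 and 19.0 ± 2.10 CPM (n = 3 each; edgeR adjusted p = 0.885). On day 4 CTRL held 20.9, 26.5, 31.6 and 13.6 CPM and EXP 15.0, 3.05 and 17.3 CPM, with only EXP replicate 2 below the CTRL range. The difference was -0.97 (SE 0.45, edgeR adjusted p = 0.127) and passed with voom alone (-1.75, adjusted p 0.022, the lowest of 12 alternatives up to 0.439).

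Igfbp2, whose falls were known beforehand, was left out of the count by day. Of the other 8 genes, 4 were called on day 1 (Igf1r higher, and Igf1, Igfbp5 and Igfbp6 lower). On that day 28.6% of all tested genes were called, 13.9% higher and 14.7% lower. On day 2 it was 3 of 8 (Igfbp4 higher, and Igfbp5 and Igfbp6 lower) beside 13.4% of all genes (7.72% higher, 5.71% lower). On day 4 it was 2 of 8 (Igfbp4 higher and Igfbp5 lower) beside 22.5% (12.8% higher, 9.66% lower). The count of all 9 genes in the same fit was 5, 3 and 3. It includes Igfbp2, whose falls were known beforehand, so it carries no support. It is given only as the reference for the counts of all 9 genes in the closing sections. As all 9 genes were picked with earlier results of these data in view, these counts are description only. CTRL and EXP did not overlap for 3, 4 and 3 of the 9 (2, 4 and 2 of 8 without Igfbp2), while 23.9%, 39.3% and 25.5% of all genes did not overlap. The median of the 9 differences was -1.03, -0.14 and -0.65 on the 3 days, and that of the 8 without Igfbp2 was -0.63, -0.28 and -0.41, with 0.02, 0.02 and 0.03 over all genes. Scaling by library totals alone moved the median over all genes to 0.21, 0.49 and 0.36 and the share of calls that were higher in EXP from 48.7%, 57.5% and 57% to 66.2%, 90.5% and 80.7%. No call of the 9 genes changed its direction under that or any other setting tried.

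To set different genes side by side, CPM were divided by the joined length of all exons annotated for a gene. Which transcript forms were expressed was not determined, so the order rests on those lengths. On that scale Igfbp6 was the most abundant of the 9 transcripts in every group. It averaged 432 to 639 CPM per kb in CTRL and 177 to 275 CPM per kb in EXP. In CTRL Igfbp5 came next on every day (90.9 ± 26.9, 129 ± 40.1 and 165 ± 34.4 CPM per kb), followed by Igfbp7 (50.3 ± 9.23, 59.4 ± 10.6 and 109 ± 105), and the 2 overlapped on day 4. In EXP Igfbp5 (15.7 to 28.6) fell behind Igfbp7 (44.8 to 82.3) and Igfbp4 (30.7 to 104) by group mean. Igf1 averaged 5.69 to 16.9 CPM per kb by group, Pappa 1.00 to 2.10 and Igf1r 0.837 to 1.24. In CPM not divided by length, Igfbp6 had the highest mean of the 9 in both arms on day 1 only. In CTRL mean Igfbp5 exceeded mean Igfbp6 on day 2 (774 against 711 CPM) and day 4 (992 against 480 CPM). In EXP mean Igfbp4 exceeded mean Igfbp6 on day 2 (216 against 197 CPM) and day 4 (461 against 306 CPM).

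The 6 binding-protein transcripts together summed to 746 ± 62.5, 842 ± 84.0 and 743 ± 65.5 CPM per kb in CTRL on days 1, 2 and 4 and to 368 ± 113, 293 ± 62.6 and 470 ± 222 in EXP. These sums and the shares below rest on the same joined exon lengths. On days 1 and 2 no EXP library reached the lowest CTRL library, while on day 4 the ranges of 650.3 to 803 and 264 to 705 overlapped. As a share of that sum, Igfbp5 made up 12.4 ± 4.22%, 15.2 ± 3.62% and 22.5 ± 5.59% in CTRL against 4.54 ± 1.35%, 6.46 ± 2.31% and 7.08 ± 3.52% in EXP. Igfbp4 made up 4.78 ± 2.75%, 1.13 ± 0.144% and 2.60 ± 1.04% in CTRL and 7.73 ± 4.41%, 17.8 ± 8.36% and 24.7 ± 12.5% in EXP. Thus Igfbp4 exceeded Igfbp5 within the pool in all 6 EXP libraries of days 2 and 4 and in none of the CTRL libraries of those days.

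**Figure D4:**
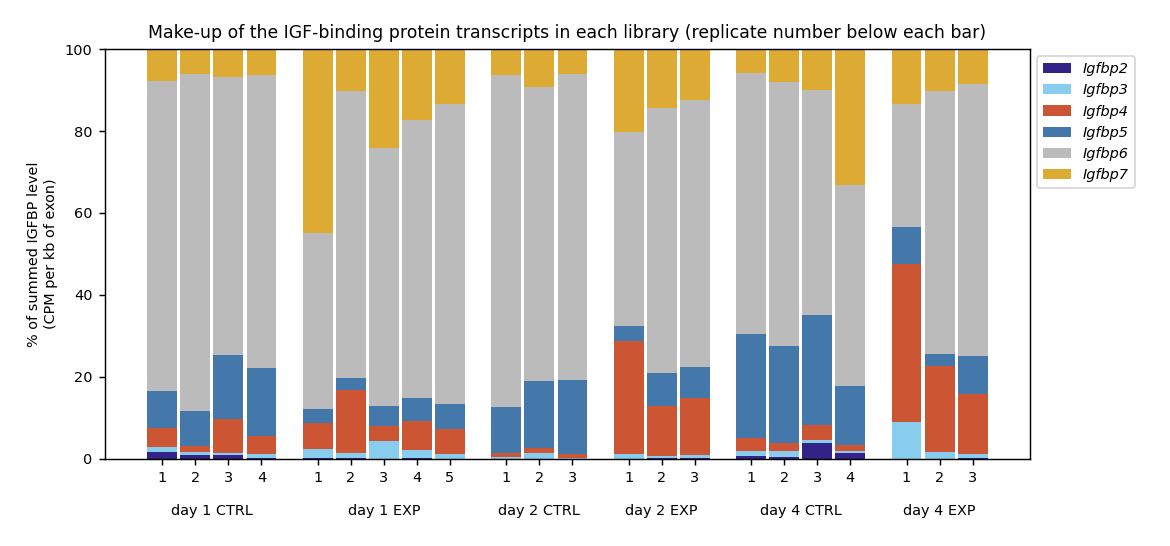
Share of each binding-protein transcript in the summed binding-protein level (y axis, % of CPM per kb) in each library (bars, replicate number below), grouped by day and arm. Igfbp6 is the largest share except in day 1 EXP replicate 1 and day 4 EXP replicate 1, the Igfbp4 share is 12.2% to 38.6% in EXP and at most 3.70% in CTRL on days 2 and 4, and Igfbp7 stands out in day 1 EXP replicate 1 (45.0%) and day 4 CTRL replicate 4 (33.2%).

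Across the days within an arm, none of the 9 genes was called in CTRL, where 0.291% of all genes were, and none in EXP, where 14.3% were (edgeR). At an unadjusted p under 0.05 there were 4 genes in each arm: Igf1, Igfbp2, Igfbp4 and Igfbp5 in CTRL and Igf1, Igfbp3, Igfbp4 and Igfbp5 in EXP. The share of all genes under that unadjusted threshold is not given here, so no change over days is read from these counts. DESeq2 called 3 in CTRL and 2 in EXP, and limma voom 2 and 2. Over all genes the 9 alternatives, these settings among them, called 19 to 631 in CTRL and 1432 to 3551 in EXP. 

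Beyond the 9 genes, 47 further genes of the IGF axis were listed by role, of which 43 could be tested. On day 1, 5 rose and 7 fell, on day 2, 2 rose and 3 fell, and on day 4, 2 rose and 4 fell; these 12, 5 and 6 calls stand beside 28.6%, 13.4% and 22.5% of all genes. Their median differences were -0.03, -0.18 and -0.38. The day 2 count was 8 to 17 under 6 of the alternatives.

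Among ligands, receptors and carriers, Igf2, the ligand of early growth, and Igfbp1 were too low to test, with group means of at most 0.0870 and 0.0527 CPM. Igf2r, which clears IGF2, fell on day 1 from 50.8 ± 18.9 CPM (n = 4) to 25.3 ± 7.50 CPM (n = 5; -1.01, SE 0.31, edgeR adjusted p = 0.019), a call lost without CTRL replicate 1, CTRL replicate 2 or EXP replicate 4 (adjusted p 0.0505 to 0.0733) and when the side of the split was a covariate (-0.64, adjusted p 0.0566). Its differences on days 2 and 4 were -1.01 and -0.86 (edgeR adjusted p = 0.0856 and 0.0894). The insulin receptor Insr passed on no day (-0.03, -0.41 and -0.35).

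Of the proteases and their inhibitors, Pappa2, a relative of Pappa that cuts IGFBP3 and IGFBP5, rose on days 1 and 2. It went from 15.4 ± 9.14 to 49.4 ± 17.0 CPM on day 1 (1.68, SE 0.49, edgeR adjusted p = 0.0146) and from 5.44 ± 3.11 to 29.0 ± 14.0 CPM on day 2 (2.41, SE 0.61, edgeR adjusted p = 0.0132). The first call was lost without CTRL replicate 3 (adjusted p 0.051) and the second without CTRL replicate 2, CTRL replicate 3 or EXP replicate 1 (adjusted p 0.0503 to 0.0737). Stc2, an inhibitor of PAPP-A, was higher in EXP on day 2, at 22.9 ± 3.88 CPM against 5.78 ± 0.145 CPM in CTRL (1.99, SE 0.42, edgeR adjusted p = 0.00402). Its EXP effect differed between days (edgeR adjusted p = 0.00886). From day 1 to day 2 Stc2 changed by -1.53 within CTRL and by 1.13 within EXP. Neither arm's change over days was called (edgeR adjusted p = 0.0629 and 0.0553). Stc1 passed on no day (0.18, 0.20 and 0.59). Htra1, a serine protease that cuts IGFBP5 and was named after its values were seen, fell on day 4 from 660 ± 551 CPM to 47.4 ± 36.4 CPM (-3.80, SE 0.96, edgeR adjusted p = 0.0102). It was -3.29 (adjusted p 0.0523) without EXP replicate 1 and -1.98 (adjusted p 0.296) in low-side libraries, the highest of 12 alternatives from 1.51e-04.

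In the growth hormone input to Igf1 transcription, the receptor Ghr passed on no day (-0.58, 0.21 and 0.39). Jak2 and Stat5a, the kinase and transcription factor downstream of it, rose on day 1 by 1.51 (SE 0.30, edgeR adjusted p = 8.22e-04) and 1.09 (SE 0.27, edgeR adjusted p = 0.00435). The feedback inhibitor Socs2 fell that day by 0.82 (SE 0.26, edgeR adjusted p = 0.0208). On days 2 and 4 neither Jak2 (0.68 and 0.095) nor Stat5a (0.51 and -0.395) passed. These 3 genes were also named after their values were seen. Of the 6 genes in this list, 3 were called on day 1 and 0 on days 2 and 4. Over all genes 28.6%, 13.4% and 22.5% were called. Any relation of this list to the Igf1 difference was not tested.

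Downstream of the receptor, Irs1, an adaptor that carries the signal to PI3 kinase, fell on day 1 from 15.2 ± 4.04 to 5.17 ± 1.89 CPM (-1.55, SE 0.27, edgeR adjusted p = 2.65e-04) and on day 2 from 19.3 ± 0.696 to 9.23 ± 1.07 CPM (-1.07, SE 0.33, edgeR adjusted p = 0.0344). The day 2 call was lost whichever of the 6 libraries was left out (adjusted p 0.0643 to 0.114), and with library totals alone the difference was -0.59 (adjusted p 0.192). Irs2 passed on no day (-0.20, -0.72 and -0.12). The kinase Akt2 fell on days 2 and 4 (-0.75 and -0.85, edgeR adjusted p = 0.0217 and 0.00615), with an effect that differed between days (edgeR adjusted p = 0.0294), a call lost without day 1 CTRL replicate 1, 3 or 4 or EXP replicate 5 (adjusted p 0.0511 to 0.0681). On day 4 it missed the threshold with that day's libraries alone (adjusted p 0.0754) and in low-side libraries (0.254). The day 2 fall was -0.29 (adjusted p 0.205) with library totals alone and was lost without CTRL replicate 1, EXP replicate 1 or EXP replicate 3. Grb14, an inhibitor of insulin-receptor signalling, rose on days 1 and 4 (1.27 and 1.36, edgeR adjusted p = 0.0379 and 0.0495). The day 1 call was lost without CTRL replicate 1, 2 or 4 or EXP replicate 2, 3 or 5 (adjusted p 0.0579 to 0.105), and on day 4 the difference was 0.06 (adjusted p 0.94) without EXP replicate 1 and missed the threshold without CTRL replicate 1, 3 or 4. Sesn1, a stress-induced restraint on mTOR complex 1, fell on all 3 days (-0.83, -1.87 and -1.61, edgeR adjusted p = 0.0204, 0.00101 and 0.00175), the first lost without CTRL replicate 1, CTRL replicate 3 or EXP replicate 4 (adjusted p 0.0501 to 0.058).

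**Figure D5:**
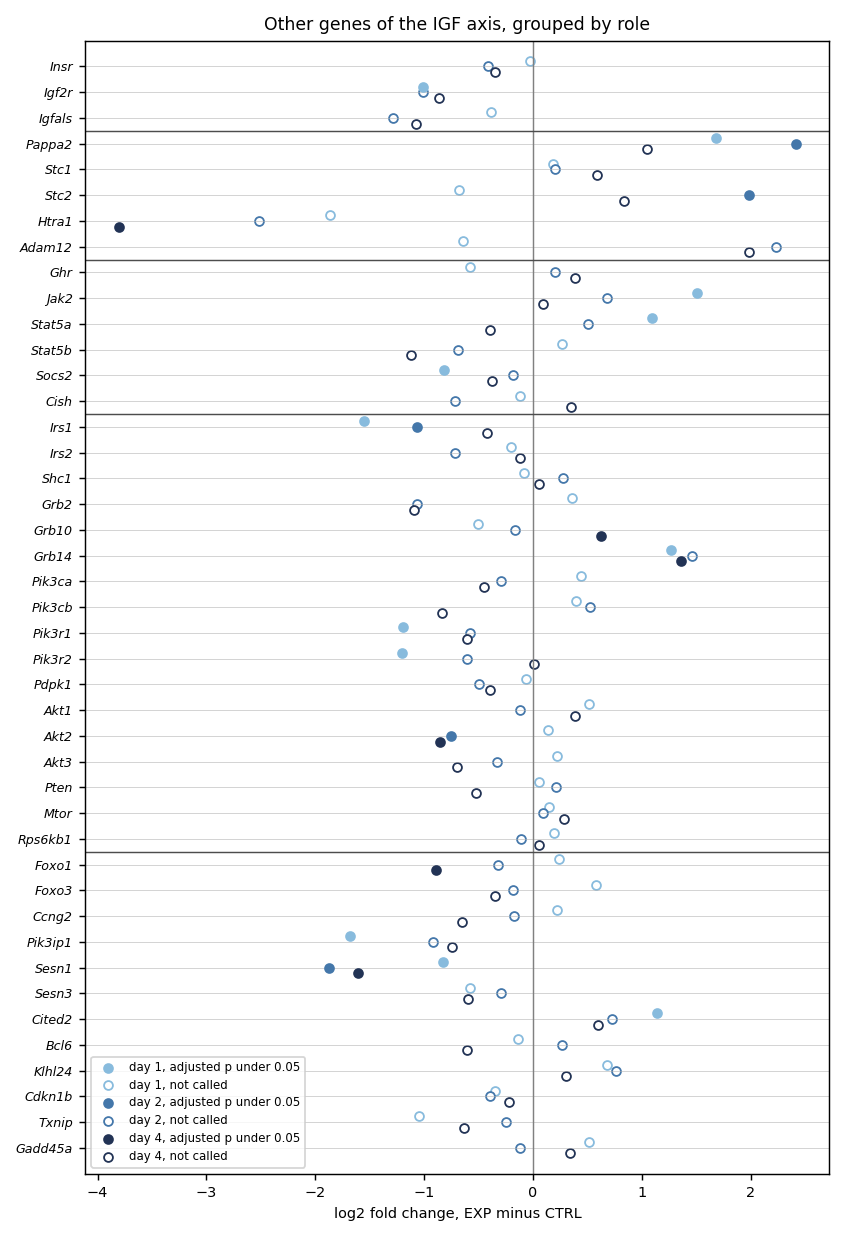
log2 fold change of EXP over CTRL (x axis) for the 43 tested genes of the IGF axis on days 1, 2 and 4, with lines between the role groups (receptors and carriers, proteases and their inhibitors, growth hormone input, adaptors with PI3 kinase and AKT, FoxO factors with their targets); filled points passed an adjusted p of 0.05. Pappa2 and Stc2 lie to the right on day 2, Sesn1 lies to the left on all 3 days, and Htra1 is farthest left at -3.80 on day 4.

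For each of the 9 genes the 2 transcripts with the most similar profile were found by Pearson's r of log2 CPM over the 22 libraries, which share days, arms and the library split; the coefficients are descriptions and carry no test. Igfbp5 ran closest to Slc2a10 (0.948) and Fto (0.943), Igfbp6 to Atraid (0.946) and Tm2d2 (0.945), and Igfbp4 to Bmper (0.924) and Vegfd (0.889). Igfbp7 ran with Tlnrd1 (0.911) and Zxdc (0.90), Igf1 with Erp44 (0.873) and Pdia3 (0.837), and Pappa with Setdb2 (0.876) and Ptgfr (0.874). For Igfbp2 the pair was Tbx15 (0.863) and Fbxo31 (0.858), for Igf1r Ankrd12 (0.832) and Ubr4 (0.831), and for Igfbp3, the least matched, Nectin3 (0.742) and Gm2436 (0.697). No 2 of the 9 genes shared a nearest transcript.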

How the data were processed

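RNA of sorted fibroblasts was sequenced as paired-end ultra-low-input libraries, per the labels' protocols. The authors deposited 1 table of raw counts per gene for 22 libraries. Trimmomatic and the mm39 build are named per the submitters' processing notes; the aligner, counter, annotation and use of strand are not given in the sources used here. Ensembl identifiers were named from GENCODE M21 (52081 matched), whose exon lengths also served for levels per kb. Genes were filtered with filterByExpr (minimum count 10), scaled by TMM and fitted over the 6 day-by-arm groups with edgeR 4.0.16 in R 4.3.3 (robust quasi-likelihood, 16 residual degrees of freedom, adjusted p below 0.05). CPM values use TMM-scaled totals. The fitting was tested on simulated counts. limma 3.58.1 voom, DESeq2 1.42.0, other scalings and filters, covariates, a replicate block and leaving out each library served as alternatives. All 9 genes were named. Further named axis genes were 10 set genes and those called in the same direction on 2 or more days (Akt2, Sesn1 and Grb14). Htra1, Jak2, Stat5a, Socs2, Grb10 and Pik3r2 were named outside this rule, after their values were seen. The genes and lists were chosen with earlier results of these data known. Depth is 21461294 to 30210204 counts, and no 2 replicates agreed within sampling noise (chi-square over its degrees of freedom, 25.5 to 423). The library split is the mean of 192 genes that correlate with Rnf10 above 0.9 once group means are removed, cut at its widest gap.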

Additional observations from a re-analysis of the deposited data

Results flagged for a closer look

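Igf1 (134 CPM), Igfbp4 (347 CPM) and Ghr (237 CPM) each had 1 day 1 EXP library, replicate 2, far above the other 4, which held 39.6 to 56.0, 61.6 to 116 and 108 to 145 CPM. Igfbp7 stood at 322 CPM in day 4 CTRL replicate 4 against 54.4 to 78.0 CPM in the rest of the group. Insr was 32.3 CPM in day 1 EXP replicate 3 (others 18.6 to 20.9). Stc2 was low in day 1 CTRL replicate 3 at 6.72 CPM (others at least 19.0) and Sesn1 in day 4 CTRL replicate 3 at 18.4 CPM (others 29.3 to 31.6). Igfbp1 was at 0 in all day 1 libraries except CTRL replicate 4 (0.153 CPM) and EXP replicate 1 (0.14 CPM), values near the floor of 3 counts. In all, 66 groups of 4 or 5 libraries were checked and 9 had such a library, where chance alone gives 3.3 if groups are independent. They are not: 3 of the 9 are the same library, and both Igfbp1 groups hold 0 in every other library, so no excess is read from the count.

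The EXP effect differed between the days, by edgeR's joint test, for Igf1 (adjusted p = 0.0143), Igfbp4 (adjusted p = 0.0283), Stc2 (adjusted p = 0.00886) and Akt2 (adjusted p = 0.0294). Grb10 (adjusted p = 0.0424) and Pik3r2 (adjusted p = 0.0335), named after their values were seen, complete the 4 calls among the 43 further axis genes. The Pik3r2 call was lost in 8 of the 22 fits leaving out a library (adjusted p 0.0239 to 0.122 over all 22). It was also lost in 2 of 9 alternatives (0.0188 to 0.096 over all 9). The Grb10 call was not followed through these other fits.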

How the results depend on the processing

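No result reversed among called values; of 503 refitted differences of the 9 genes, 13 had the other sign, and 27 lost and 14 gained a call. The number of genes called moved from 5017 to 2210 on day 1 with the high side alone; from 2359 on day 2 to 4631 with library totals and 4620 with voom; and from 3943 on day 4 to 1128 with that day's libraries alone and 1 with the low side alone. Of the 9 genes, the low side alone called 0 on day 4. All counts of the 9 genes in this section include Igfbp2, whose falls were known beforehand. The axis count on day 2 (5) was 9 with totals, 8 with the split as a covariate, 17 with voom, 8 with DESeq2, 15 with that day alone and 9 with the replicate block; on day 4 (6) it was 3 without a filter, 10 with DESeq2, 1 with that day alone and 0 on the low side.

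For the difference between days, genes called went from 1549 to 2352 (voom), 2606 (DESeq2) and 764 without both libraries with most Igfbp7, and the 9 genes from 2 to 1 in the last setting and without a filter. Within EXP the 9 genes gave 1 call with a minimum count of 30, without the top 10 genes in the totals or with the split, and 2 with voom or DESeq2. Over all genes 1432 to 3551 were called within EXP in the 9 alternatives, against 2502 in the main fit. Within CTRL genes called went from 51 to 163 (totals), 80 (minimum 30), 102 (top 10 left out), 29 (split), 631 (voom) and 513 (DESeq2), and the 9 genes from 0 to 2, 1, 1, 1, 2 and 3. The cause of these shifts was not tested.

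The replicate numbers do not pair the samples: correlations of same-numbered libraries were -0.066 to 0.164. With the replicate block 401 genes and 1 of the 9 were called for the difference between days, 1432 genes for change within EXP and 19 within CTRL; by day it called 4337, 2210 and 2702 genes and 4, 2 and 2 of the 9. It ended the calls of Igf1 (adjusted p 0.0965) and Igfbp4 (0.201) for the difference between days and of Igfbp4 on days 2 and 4 (0.064 and 0.069) and Igf1r on day 1 (0.194). Among other genes named in the text it ended those of Igf2r (0.0543) and Grb14 (0.0702) on day 1, Grb14 on day 4 (0.285) and Akt2 (0.112) and Pik3r2 (0.0927) for the difference between days.

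Leaving out 1 library gave 4024 to 4830, 891 to 2177 and 1633 to 5011 genes by day, 4 to 5, 1 to 3 and 3 to 3 of the 9, and 7 to 14, 2 to 5 and 2 to 12 axis genes. It gave 898 to 2572 genes and 1 to 3 of the 9 for the difference between days, 1367 to 3415 and 0 to 2 within EXP, and 5 to 92 and 0 to 0 within CTRL. The settings that used 1 side of the split or left out both Igfbp7-rich libraries were chosen after seeing the data. At 3 to 5 libraries a group, and with Igfbp2 at 0 to 41 counts in EXP, small differences of low transcripts were not detectable.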
